A study of Mus musculus with 6 samples.

Results

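The genes described are 39 genes of the ATF4 amino acid response, measured in sorted mouse beta cells with and without the transcription factor FoxO1. They were chosen by name as known members of the response, with earlier results of these data known. All 39 had a mean of at least 1 FPKM over the 6 libraries (FPKM, fragment counts corrected for the length of the transcript and the size of the library). They stand among 23087 genes of 1 locus in the deposited table, of which 11131 passed the same filter. Fgf21 had the lowest mean, at 1.64 FPKM, and Nupr1 the highest, at 640.2 FPKM. No member was listed at 0 in any library. By role they were 13 regulators and effectors, 8 enzymes of amino acid and folate metabolism, 7 amino acid transporters and 11 cytosolic tRNA synthetases.

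ATF4 is a transcription factor whose messenger RNA is translated better when the initiation factor eIF2 is phosphorylated, as happens when amino acids run short or the endoplasmic reticulum is stressed. With partners of the C/EBP family it binds a composite DNA element and raises genes that make, import and load amino acids onto tRNA, together with genes that end the response, such as Ppp1r15a, or that limit growth. Beta cells make large amounts of secreted protein, and this arm of the stress response is known to be active in them. Because ATF4 is controlled largely at translation, the level of its own message is an incomplete guide to its activity.

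The mice, all of the mixed 129J-C57BL/6 strain background and kept on standard chow, gave islets from which beta cells were FAC-sorted. In the RIP-Cre/FoxO1 floxed (IKO) mice, Cre driven by an insulin promoter removes FoxO1 from beta cells, and the other mice were labelled wild type (WT). Both genotypes were sampled as nulliparous mice at 3 months, as nulliparous mice at 12 months, and at 12 months as multiparous mice with 3 pregnancies. The multiparous IKO library is labelled DM and the multiparous WT library NGT, so what these labels mark cannot be told apart from genotype and parity. Each of the 6 groups held 1 library, and the labels do not say how many animals each came from or whether WT mice carried the Cre transgene. A difference between 2 libraries therefore has no replicate behind it. In bulk RNA, fewer cells of a type and less RNA per cell cannot be told apart.

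Foxo1 itself was at 0.410, 0.410 and 0.656 FPKM in the IKO libraries in the order of stages (3 months, 12 months nulliparous, 12 months multiparous), against 5.67, 7.62 and 8.93 FPKM in WT, as the labels say. FPKM summed to 268006 to 316023 per library. The 12-month nulliparous WT library stood apart, with correlations across genes of 0.955 to 0.961 with the other 5 libraries, against 0.982 to 0.993 among those 5. It also had the highest summed level of acinar, alpha, and delta and PP cell markers, at 118, 1069 and 1606 FPKM, against 27.9 to 58.2, 279 to 742 and 416 to 535 FPKM in the others. Its beta cell marker sum was highest too, at 12319 FPKM against 5108 to 6600 FPKM, and was mostly Chga, at 10936 FPKM. Of 12 beta cell markers 9 were measured, and Ins1, Ins2 and Iapp were listed at 0 in every library. No endothelial or stromal marker reached a mean of 1 FPKM. Their sums were also highest in 12-month nulliparous WT, at 5.62 and 2.39 FPKM, against 0.866 to 1.89 and 0.410 to 1.32 FPKM in the others. Levels are printed for all 6 libraries, and ratios that use the 12-month nulliparous WT library are named as such.

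The DNA element bound by ATF4 and C/EBP factors can be read in the promoters of the genes themselves. RefSeq windows (GRCm38.p6) running from 250 bases before to 50 after the gene start were found for 32 of the 39 members. The core TGATGNAA was present on either strand in 15 of these 32 (46.9%). It was present in 4.51% of all 27025 genes with a window, and in 2.57% of the 8311 of them that passed the filter. It was present in 6 of 12 regulators, 2 of 7 enzymes, 2 of 5 transporters and 5 of 8 synthetases. None of the 5 other cytosolic synthetases with a window held it, nor any of 15 mitochondrial ones. Among further ATF4 targets 3 of 22 with a window held it (13.6%), and among genes of the upstream eIF2 arm 1 of 15. The 39 members were assembled as ATF4 targets, so their share describes the set and is not independent of its choice. Of the 17 occurrences, 12 read TGATGCAA, 3 TGATGAAA and 2 TGATGTAA, and 3 lay on the gene's own strand.

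Occurrences in members that the later results turn on are shown so that the shared core can be compared. Each is 30 bases with the core in capitals, printed on the strand where it reads TGATGNAA. Those of Trib3, Iars and Yars lie just inside the transcribed part, and that of Slc1a4 spans the gene start.
Nupr1, chr7:126625562-126625591, plus strand: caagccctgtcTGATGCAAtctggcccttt
Atf3, chr1:191183425-191183454, plus strand: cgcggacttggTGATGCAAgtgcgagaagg
Trib3, chr2:152344028-152344057, plus strand: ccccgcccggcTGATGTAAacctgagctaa
Chac1, chr2:119351038-119351067, minus strand: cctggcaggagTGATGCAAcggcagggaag
Asns, chr6:7693214-7693243, minus strand: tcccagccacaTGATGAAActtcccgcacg
Pck2, chr14:55540152-55540181, minus strand: ctgtaagatacTGATGTAActttgaaggct
Slc7a11, chr3:50443661-50443690, minus strand: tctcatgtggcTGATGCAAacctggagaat
Slc1a4, chr11:20332699-20332728, plus strand: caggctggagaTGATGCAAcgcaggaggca
Gars, chr6:55037960-55037989, minus strand: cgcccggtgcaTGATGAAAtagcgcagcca
Yars, chr4:129189895-129189924, plus strand: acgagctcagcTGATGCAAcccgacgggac
Iars, chr13:49682126-49682155, minus strand: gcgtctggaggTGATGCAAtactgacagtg

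The 250 bases before the start are given whole for 2 genes, Asns because its element is the classic amino acid response site of this pathway, and Nupr1 because it was the member with the largest difference between stages. The capitals mark the core. Counted from the gene start, the core lies at -23 to -16 in Asns, on the gene's own strand, and at -110 to -103 in Nupr1, where it reads as the reverse complement.
Asns, chr6:7693210-7693459, minus strand: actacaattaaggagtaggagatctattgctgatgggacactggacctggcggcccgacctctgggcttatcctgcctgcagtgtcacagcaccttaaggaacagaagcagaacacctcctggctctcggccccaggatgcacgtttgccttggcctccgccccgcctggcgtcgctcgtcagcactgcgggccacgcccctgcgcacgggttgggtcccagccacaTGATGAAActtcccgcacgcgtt
Nupr1, chr7:126625471-126625720, minus strand: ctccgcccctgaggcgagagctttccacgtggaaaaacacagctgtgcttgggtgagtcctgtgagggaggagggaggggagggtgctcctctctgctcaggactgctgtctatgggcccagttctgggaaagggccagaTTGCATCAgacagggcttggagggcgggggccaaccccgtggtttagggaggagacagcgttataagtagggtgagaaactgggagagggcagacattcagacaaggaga

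Most of the response was well expressed in every library. Atf4 (chromosome 15, 80255184 to 80257541, mm10), the factor itself, was at 304, 332 and 320.5 FPKM in the IKO libraries in the order of stages, against 312, 391 and 332 FPKM in WT. Outside the WT library that stood apart its level spanned 304 to 332 FPKM, so its message varied little between genotypes and stages. Ddit3 (chromosome 10, 127290793 to 127296288), which encodes the stress factor CHOP, was at 129, 168 and 132 FPKM in IKO, against 141, 100.2 and 170.0 FPKM in WT. Its locus overlaps that of Mars by 68 bases, and whether reads were counted by strand is not given in the sources used here. Asns (chromosome 6, 7675171 to 7693182), which makes asparagine, was at 174, 186 and 156 FPKM in IKO, against 179.6, 175 and 173 FPKM in WT. The remaining regulators and effectors were Cebpb, Cebpg, Nupr1, Trib3, Ppp1r15a, Chac1, Vldlr, Sesn2, a brake on the growth kinase mTORC1, and Eif4ebp1, which holds back cap-dependent translation. Cebpg, a dimer partner of ATF4, was at 32.0, 37.8 and 31.5 FPKM in IKO in the order of stages, against 33.9, 32.3 and 35.4 FPKM in WT. Sesn2 was at 29.3, 41.0 and 29.6 FPKM in IKO, against 33.0, 46.7 and 31.0 FPKM in WT, with the highest value of each genotype at 12 months nulliparous, which in WT is the library that stood apart. The enzymes were Asns, Phgdh, Psat1, Psph, Shmt2, Mthfd2, Aldh1l2 and Pck2, and the transporters Slc7a11, Slc7a5, Slc7a1, Slc7a3, Slc3a2, Slc38a2, which carries small neutral amino acids, and Slc1a4. The 11 synthetases, Aars, Gars, Sars, Nars, Wars, Cars, Mars, Tars, Yars, Eprs and Iars, ranged over the 6 libraries and all genes from 22.3 FPKM for Iars to 214 FPKM for Gars, both in 12-month nulliparous WT. The low end was held by Fgf21, a secreted hormone, Slc7a11, the cystine transporter, and Atf3, a stress-induced repressor, with means of 1.64, 2.18 and 5.08 FPKM.

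**Figure D1:**
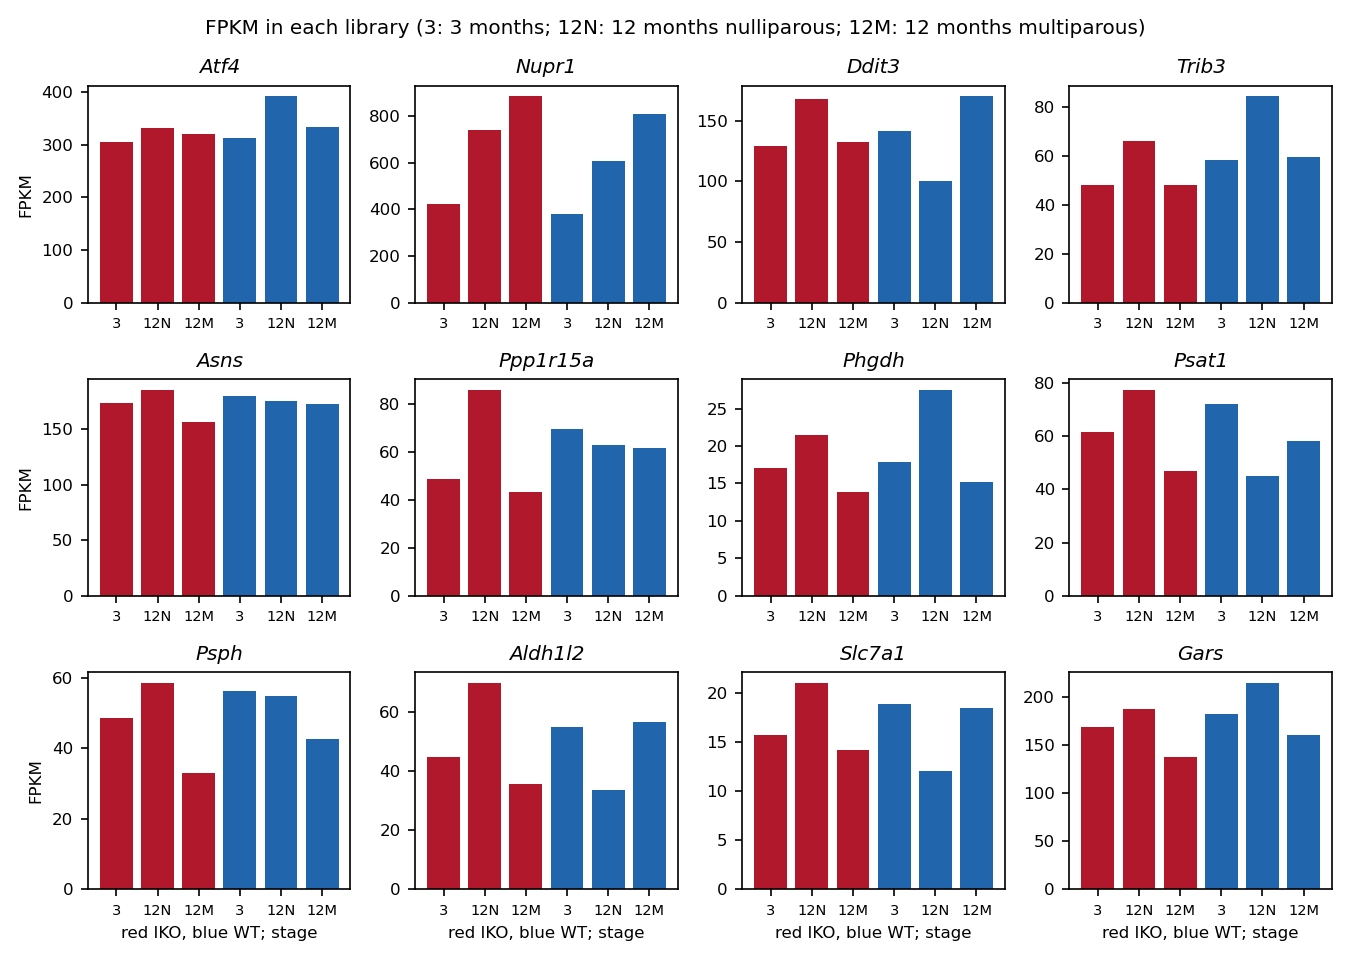
FPKM (vertical axes, from 0, each gene on its own scale) of 12 members in each library, with IKO in red and WT in blue and the stages in order within each genotype. Atf4 spans 304 to 332 FPKM outside the 12-month nulliparous WT library, Nupr1 is lowest at 3 months in both genotypes, and Psph and Ppp1r15a are highest in 12-month nulliparous IKO and lowest in multiparous IKO.

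At 3 months, nearly the whole response was slightly lower in IKO than in WT beta cells. Ratios are given as the log2 ratio of FPKM + 1, which understates the change of low genes. It was below 0 for 37 of 39 members, against 46.5% of the 11113 genes compared, and the median of the members was -0.10, against 0.01 over all genes. The differences were small. None of the 39 reached 1.5-fold in either direction, as did 0.36% of all genes. The largest difference was in Ppp1r15a (chromosome 7, 45522917 to 45526268), the phosphatase subunit GADD34 that ends eIF2 phosphorylation, at 48.9 FPKM in IKO and 69.6 FPKM in WT (log2 ratio -0.50). Slc7a3, a transporter of cationic amino acids, followed at 4.83 FPKM in IKO and 6.51 FPKM in WT (-0.37), and Vldlr, a lipoprotein receptor gene induced by ATF4, at 24.8 and 31.2 FPKM (-0.32). Trib3, a pseudokinase that restrains ATF4, was at 47.8 FPKM in IKO and 58.2 FPKM in WT (-0.28). All 8 enzymes and all 7 transporters were below 0, as were all 11 synthetases, although Sars stood at 128 FPKM in both libraries and Cars at 45.9 FPKM in IKO and 46.2 FPKM in WT. Only Nupr1, a small chromatin protein of the stress response, at 0.16, and Fgf21, at 0.04, lay above 0.

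The multiparous pair, which shares no library with the 3-month pair, had the same direction with a larger median. The log2 ratio of IKO against WT was below 0 for 34 of 39 members, against 55.6% of the 11113 genes compared, and its median was -0.17, against -0.02 over all genes. The enzymes were lowest, with all 8 below 0 and a median of -0.30. Aldh1l2 (chromosome 10, 83487447 to 83534140), the mitochondrial enzyme that oxidises formyl-folate, was at 35.5 FPKM in IKO and 56.5 FPKM in WT (-0.66), and it was the 1 member past 1.5-fold lower, as were 0.495% of all genes. Shmt2, which moves the carbon of serine onto folate in mitochondria, was at 31.2 FPKM in IKO and 40.6 FPKM in WT (-0.37). Psph, the last enzyme of serine synthesis, was at 33.1 FPKM in IKO and 42.6 FPKM in WT (-0.35). Among the regulators Ppp1r15a was again lowest, at 43.5 FPKM in IKO and 61.8 FPKM in WT (-0.50), and Ddit3 was at 132 FPKM in IKO and 170.0 FPKM in WT (-0.36).

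All 11 tRNA synthetases of the set, the enzymes that load amino acids onto tRNA, were lower in multiparous IKO than in multiparous WT, with a median of -0.20. Eprs stood at 103 FPKM in IKO and 131 FPKM in WT (-0.33), Tars at 72.3 and 90.3 FPKM (-0.32) and Iars at 25.2 and 31.6 FPKM (-0.32). The transporters were split, with 4 of 7 below 0 and a median of -0.08. Slc7a1, which carries arginine and lysine, was at 14.1 FPKM in IKO and 18.4 FPKM in WT (-0.36), whereas Slc7a5 and Slc3a2, the paired chains of the leucine transporter, were level, at 76.3 and 124 FPKM in IKO against 75.0 and 123 FPKM in WT.

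Both pairs together had 34 of 39 members below 0 at 3 months and in multiparous mice, against 31.8% of all genes. Across the 39 members the ratios of the 2 pairs had r = 0.63 and rho = 0.62, against r = 0.31 and rho = 0.35 across 11106 genes. Genes are not independent replicates, so these correlations are a description. In 29 of 39 members the ratio was lower in the multiparous than in the 3-month pair, against 57.9% of all genes. Of 10 acinar markers measured, 10 were above 0 at 3 months (median 0.52) and 9 below 0 in the multiparous pair (median -0.11). Their summed level was 39.9 FPKM in IKO and 29.7 FPKM in WT at 3 months, and 31.6 FPKM in IKO and 27.9 FPKM in WT after 3 pregnancies, with Ptf1a listed at 0 in every library. The multiparous sum was mostly Bhlha15, at 26.9 FPKM in IKO and 21.5 FPKM in WT, the 1 marker above 0 there. Of 6 ductal markers 4 were measured, all above 0 in both pairs, with medians of 0.19 at 3 months and 0.17 in multiparous mice. The list summed to 564 FPKM in IKO and 477 FPKM in WT at 3 months. In multiparous mice it summed to 591 FPKM in IKO and 526 FPKM in WT. These sums were mostly Krt7 and Spp1. Krt7 was at 335 FPKM in IKO and 300 FPKM in WT at 3 months, and at 312 and 287 FPKM in multiparous mice. Spp1 was at 226 FPKM in IKO and 174 FPKM in WT at 3 months, and at 274 and 236 FPKM in multiparous mice. Sox9 and Cftr had means of 0.008 and 0.046 FPKM. Of 9 beta cell markers, 6 were below 0 at 3 months and 7 above 0 in the multiparous pair. The part of these lists in the result was not tested.

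**Figure D2:**
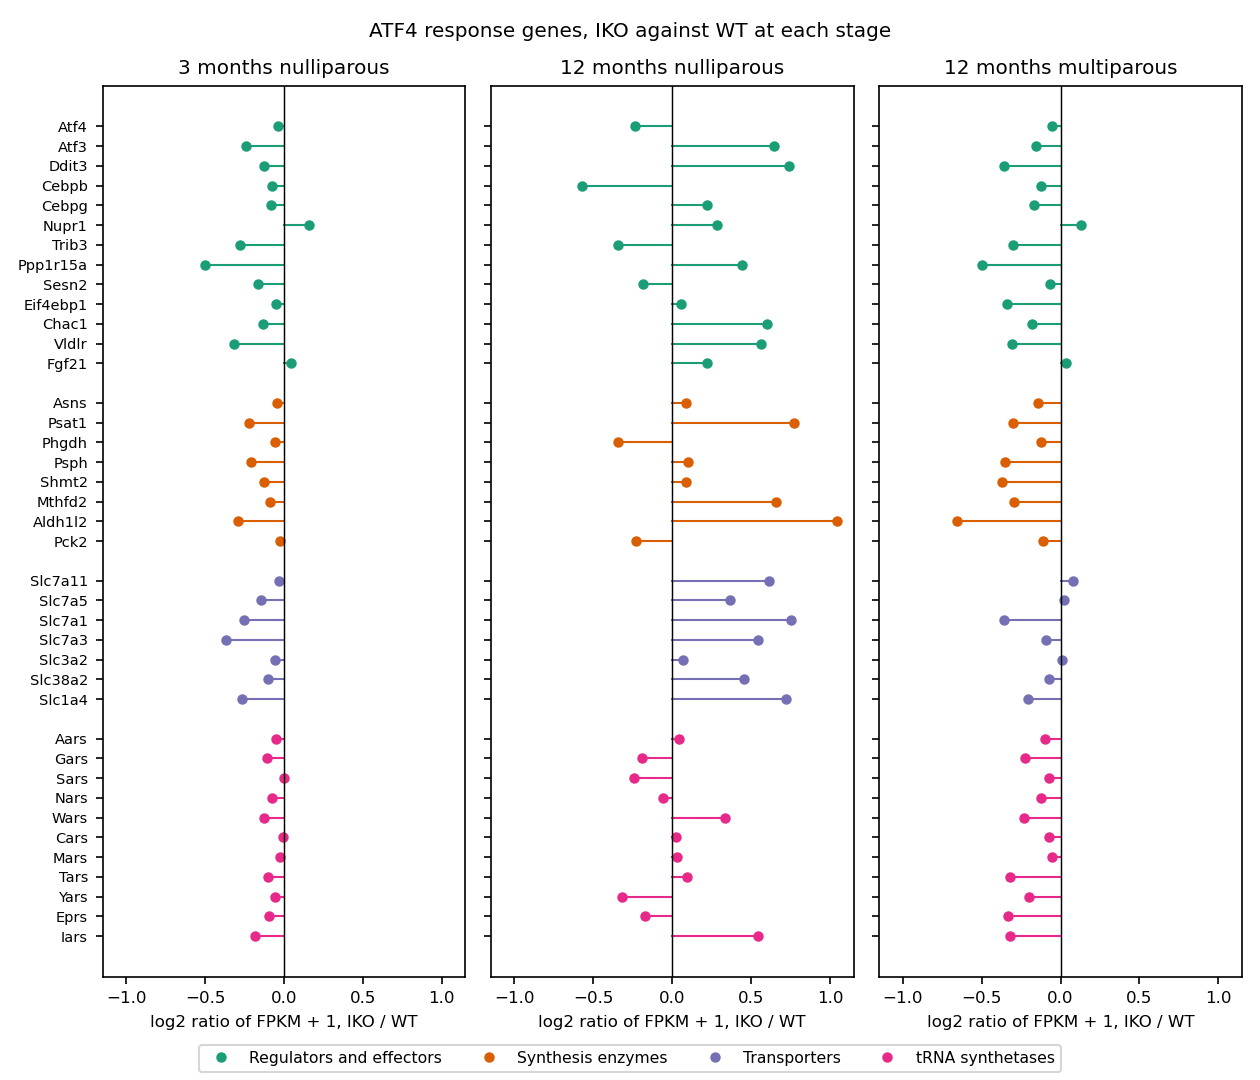
Log2 ratio of FPKM + 1, IKO over WT (horizontal axes), for each of the 39 members (rows, coloured by role) in the 3 pairs of libraries. At 3 months 37 points and in multiparous mice 34 points lie left of 0, whereas in the 12-month nulliparous pair 28 lie right of 0.

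At 12 months nulliparous, where the WT library stood apart, the balance was the other way round. The log2 ratio was above 0 for 28 of 39 members, against 57.3% of the 11111 genes compared, with a median of 0.10 against 0.07 over all genes. Past 1.5-fold higher in IKO were 9 members, against 7.16% of all genes. These were Aldh1l2 at 69.9 FPKM in IKO and 33.4 FPKM in WT (1.04), Psat1, Slc7a1, Ddit3, Slc1a4, Mthfd2, Atf3, Slc7a11 and Chac1. Trib3 went the other way, at 66.1 FPKM in IKO and 84.2 FPKM in WT (-0.34), as did Cebpb, a partner factor of ATF4 (-0.57), and Phgdh, the first enzyme of serine synthesis, at 21.5 and 27.5 FPKM (-0.35). The WT library held the highest value of all 6 for 11 of the 39 members and the lowest for 12, against 32.4% and 43.5% of all genes. The median of all genes in this pair moved to 0.22 when libraries were rescaled without the 20 most abundant genes, and the members' median then moved to 0.27 with 30 of 39 above 0 and 14 past 1.5-fold higher. After rescaling by the median ratio of genes the members' median was 0.02 with 23 of 39 above 0 and 5 past 1.5-fold higher.

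Across the IKO libraries the response was highest at 12 months nulliparous. From the 3-month to the 12-month nulliparous IKO library, the log2 ratio was above 0 for 38 of 39 members, against 56.2% of the 11109 genes compared, with a median of 0.26 against 0.02 over all genes. Past 1.5-fold higher were 4 members, against 0.882% of all genes. Atf3 was at 6.76 FPKM at 12 months and 3.37 FPKM at 3 months (0.83), Nupr1 at 739 and 422 FPKM (0.81), Ppp1r15a at 86.1 and 48.9 FPKM (0.80) and Aldh1l2 at 69.9 and 44.8 FPKM (0.63). The regulators had the largest median of the role groups, 0.41 with 13 of 13 above 0, followed by the transporters at 0.31 with 7 of 7. The enzymes had 0.27 with 7 of 8 and the synthetases 0.14 with 11 of 11. Pck2, the mitochondrial enzyme that makes phosphoenolpyruvate, was the exception, at 78.2 FPKM at 12 months and 78.5 FPKM at 3 months.

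Between the IKO libraries at 12 months, the response was lower in the multiparous one. The log2 ratio was below 0 for 37 of 39 members, against 56.1% of the 11109 genes compared, and its median was -0.34, against -0.02 over all genes. Past 1.5-fold lower were 9 members, against 1.3% of all genes, and 6 of these 9 were enzymes. After rescaling by the median ratio of genes 5 members were past it. Psph was at 33.1 FPKM in multiparous and 58.7 FPKM in nulliparous IKO (-0.81). Psat1 (chromosome 19, 15905123 to 15925059), which makes phosphoserine, was at 47.0 FPKM in multiparous and 77.6 FPKM in nulliparous IKO (-0.71). The serine and mitochondrial folate branch was thus lower at every step measured. Mthfd2, the mitochondrial folate dehydrogenase, stood at 79.5 FPKM in multiparous and 124 FPKM in nulliparous IKO (-0.63), Shmt2 at 31.2 and 47.9 FPKM (-0.60), Phgdh at 13.9 and 21.5 FPKM (-0.59) and Aldh1l2 at 35.5 and 69.9 FPKM (-0.96).

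The other members past 1.5-fold lower in multiparous IKO were Ppp1r15a, at 43.5 FPKM against 86.1 FPKM in nulliparous IKO (-0.97), Chac1, an enzyme that degrades glutathione, at 55.5 against 84.8 FPKM (-0.60), and Slc1a4, a transporter of serine and alanine, at 9.89 against 15.4 FPKM (-0.59). All 11 synthetases were below 0 in this pair, with a median of -0.32. Gars (chromosome 6, 55038001 to 55079504) was lowest of them, at 137 FPKM in multiparous and 187 FPKM in nulliparous IKO (-0.45). Trib3 was at 47.9 FPKM in multiparous and 66.1 FPKM in nulliparous IKO (-0.46), and Asns at 156 and 186 FPKM (-0.25). Only Nupr1, at 885 and 739 FPKM (0.26), and Slc3a2, at 124 and 120.3 FPKM (0.04), were higher in the multiparous library.

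Both IKO stage pairs share the 12-month nulliparous IKO library, so a high value there gives both directions. Leaving out the WT library that stood apart, 31 of 39 members had the highest of the remaining 5 values in the 12-month nulliparous IKO library and 25 the lowest in multiparous IKO, against 27.7% and 25.6% of all genes. Acinar markers moved with the members here, with a summed level of 39.9, 58.2 and 31.6 FPKM in IKO in the order of stages. Bhlha15 made up 21.6, 20.1 and 26.9 FPKM of these sums and went the other way in both pairs, so the sums understate the change of the rest. Of the 10 measured, 9 were above 0 from 3 to 12 months (median 0.61) and 9 below 0 from nulliparous to multiparous (median -1.55). The 9 beta cell markers were also all below 0 between multiparous and nulliparous IKO, with a median of -0.30. The part of either list in the result was not tested.

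**Figure D3:**
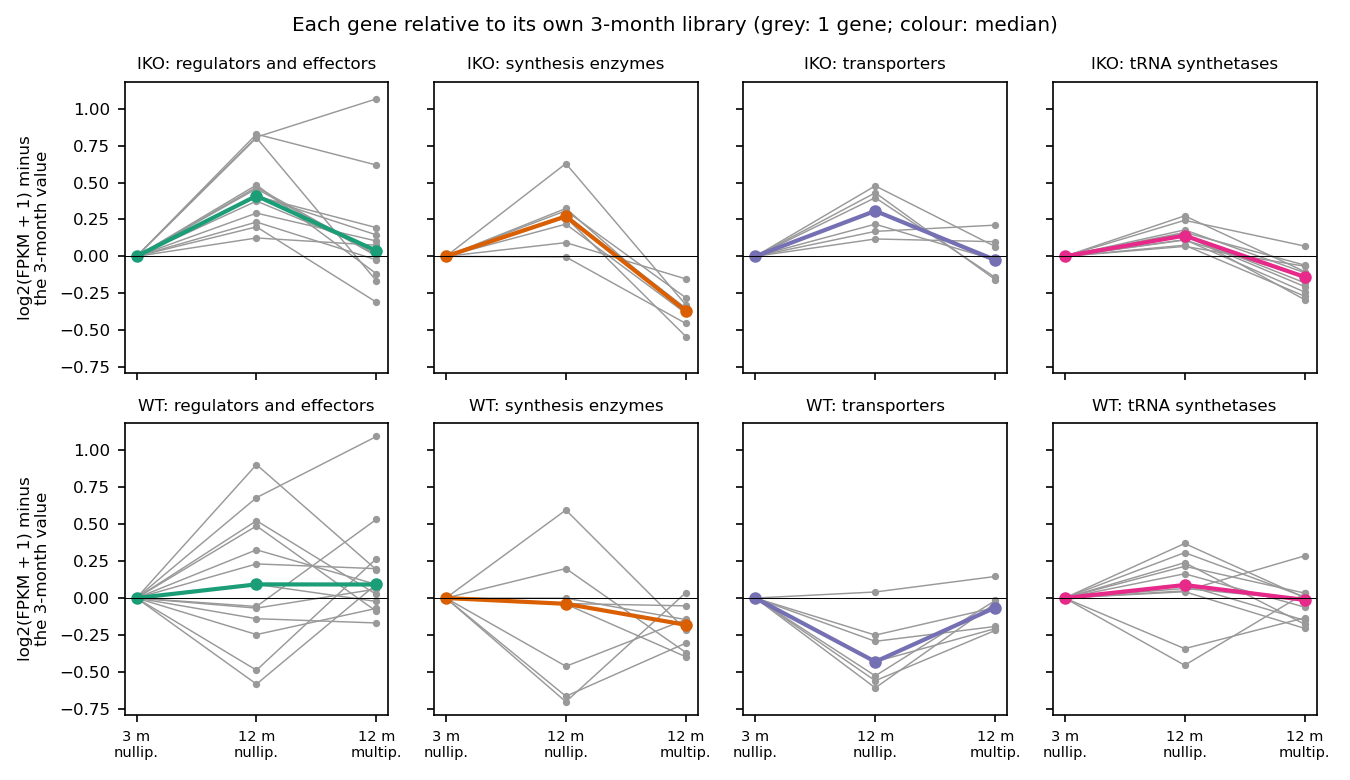
Log2(FPKM + 1) of each member minus its value in the 3-month library of the same genotype (vertical axis), by stage (horizontal axis), for IKO (upper row) and WT (lower row). Grey lines are single genes and coloured lines the median of a role group. In IKO the medians are 0.41, 0.27, 0.31 and 0.14 at 12 months nulliparous and lower in the multiparous library, whereas the WT lines spread in both directions at 12 months nulliparous.

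In WT the same steps ran through the library that stood apart, and the members spread in both directions. From 3 to 12 months nulliparous, 19 of 39 were above 0, against 45% of the 11113 genes compared, and 3 were past 1.5-fold higher and 3 lower, against 15.3% of all genes past it in either direction. Higher were Cebpb, Nupr1 and Phgdh, with Nupr1 at 607 FPKM at 12 months and 379 FPKM at 3 months (0.68). Lower were Aldh1l2, Psat1 and Slc7a1. From nulliparous to multiparous WT, 20 of 39 were below 0, against 44.3% of the 11116 genes compared, and 4 were past 1.5-fold higher and 2 lower, against 18% of all genes. Phgdh was the 1 member past 1.5-fold lower in multiparous mice of both genotypes, at 15.2 FPKM in multiparous and 27.5 FPKM in nulliparous WT (-0.81). Its log2 ratio was -0.59 in IKO. These shares move with scaling. Without the 20 most abundant genes the median of all genes moved to -0.22 with age and to 0.21 with parity in WT, and 12 of 39 members were then above 0 with age and 14 below 0 with parity. The members past 1.5-fold were then 1 higher and 10 lower with age, and 8 higher and 1 lower with parity. With the trend on length and GC removed, 0 were higher and 2 lower with age.

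Setting the multiparous libraries against the 3-month libraries leaves out both 12-month nulliparous ones, at the cost of joining age and parity. In IKO 26 of 39 members were below 0, against 51.6% of the 11107 genes compared, with a median of -0.11 against -0.01 over all genes. In WT 23 of 39 were below 0, against 43.4% of the 11112 genes compared, with a median of -0.03 against 0.02. The role groups parted. All 8 enzymes were below 0 in IKO (median -0.37) and 7 of 8 in WT (median -0.18), led in both by Psph, at 33.1 FPKM in multiparous and 48.7 FPKM in 3-month IKO (-0.54) and at 42.6 and 56.4 FPKM in WT (-0.40), and by Pck2, with log2 ratios of -0.45 in IKO and -0.37 in WT. The synthetases were below 0 for 10 of 11 in IKO (median -0.14) and 6 of 11 in WT (median -0.01). The regulators were above 0 for 9 of 13 in each genotype. Acinar markers were below 0 for 9 of 10 in IKO (median -0.86, 9 past 1.5-fold lower) and 6 of 10 in WT (median -0.17), and beta cell markers for 8 of 9 in IKO (median -0.24) and 8 of 9 in WT (median -0.40). The part of these lists in the result was not tested.

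Nupr1 (chromosome 7, 126623246 to 126625470) was the member that stood out in that comparison. It was at 885 FPKM in multiparous and 422 FPKM in 3-month IKO (1.07), and at 809.8 and 379 FPKM in WT (1.10). With the 12-month nulliparous libraries counted too, the one that stood apart among them, its values were higher at each later stage in both genotypes, and higher in IKO than in WT at each stage. Past 1.5-fold higher in IKO were Nupr1 and Atf3, against 1.58% of all genes, and in WT Nupr1, against 1.69%. Atf3 was at 5.72 FPKM in multiparous and 3.37 FPKM in 3-month IKO (0.62), and at 6.49 and 4.17 FPKM in WT (0.53). In plain FPKM the Atf3 ratio was 1.69 in IKO and 1.55 in WT. With a pseudocount of 0.1 FPKM, 2 members were past 1.5-fold higher in each genotype. No member reached 1.5-fold lower in either genotype.

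A fit across libraries was made with limma on the log2 values of all 11131 genes, with additive terms for genotype and stage and 2 residual degrees of freedom. A genotype difference that varies between stages counts as error there. With Benjamini-Hochberg adjustment over all genes at 0.05, limma called none of the 39 members in any contrast. It called 0% of all genes for genotype, 0.027% for age, 0.027% for parity and 0.0719% for multiparous against 3-month libraries. Foxo1 itself was not called for genotype, with a log2 difference of -2.48 (SE 0.11) and an adjusted p of 0.0757 in limma. A lack of calls therefore does not show a lack of difference. Unadjusted p-values under 0.05 were given to 1 member for genotype, 6 for age, 8 for parity and 3 for the joined contrast, against 1.62%, 4.33%, 7.40% and 5.13% of all genes in the same order. The 1 for genotype was Trib3, with a log2 difference of -0.31 (SE 0.09, lower in IKO at 3 of 3 stages) and an adjusted p of 0.923 in limma. The smallest unadjusted p among the members was that of Nupr1 in the joined contrast, with a log2 difference of 1.08 (SE 0.15, higher in both genotypes) and an adjusted p of 0.199 in limma. For parity it was that of Phgdh, with -0.70 (SE 0.12, lower in both genotypes) and an adjusted p of 0.385 in limma.

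Without the 12-month nulliparous WT library the same fit had 1 residual degree of freedom, and its 12-month nulliparous side was the lone IKO library, assumed to vary like the rest. Its genotype difference is the mean of the 3-month and multiparous pair ratios, so its direction restates those pairs. The median of the members was then -0.16 for genotype, with 36 of 39 below 0, and limma called none of them, against 0.018% of all genes. Unadjusted p-values under 0.05 were given to 20 of the 39, against 11.5% of all genes. For age the members' median was 0.30 with 39 of 39 above 0, and limma called 3 members, Ppp1r15a, Nupr1 and Atf3, against 0.386% of all genes. For parity it was -0.33 with 37 of 39 below 0, and 12 members were called lower, against 2.67% of all genes. These were Ppp1r15a, Trib3, Sesn2, Chac1, Psat1, Psph, Phgdh, Mthfd2, Aldh1l2, Pck2, Slc7a1 and Slc1a4, so 6 of the 8 enzymes were among them and none of the synthetases. For multiparous against 3-month libraries 7 were called, against 6.87% of all genes, with Nupr1 and Atf3 higher and Psat1, Phgdh, Psph, Pck2 and Cars lower. In that fit Ppp1r15a had a log2 difference of -0.97 for parity with an adjusted p of 0.0104 in limma, and Psph had -0.77 with 0.0257. These calls depend on which library is left out. Without the 12-month nulliparous IKO library instead, limma called 22 members for age, against 54.3% of all genes, 25 for parity, against 56.8%, and 6 for the joined contrast, against 6.9%. It called none for genotype, against 0.018% of all genes. The members' medians were -0.04 with 18 of 39 above 0 for age and -0.03 with 20 of 39 below 0 for parity. Without any of the other 4 libraries it called none of the members in any contrast.

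Other genes of the pathway were compared with the members. The upstream arm, meaning the eIF2 kinases, the subunits of eIF2 and its exchange factor and their regulators, had 17 measured genes and medians of -0.02 and -0.04 for IKO against WT at 3 months and in multiparous mice. In the IKO stage pairs its medians were 0.05 with age and -0.02 with parity, and none of the 17 passed 1.5-fold in these 4 pairs. Eif2ak3, the kinase PERK of the endoplasmic reticulum, was at 18.7, 19.6 and 23.0 FPKM in IKO in the order of stages, against 18.3, 15.1 and 23.0 FPKM in WT. Eif2ak4, the kinase GCN2 that senses uncharged tRNA, was at 4.50, 4.40 and 4.72 FPKM in IKO, against 4.47, 3.31 and 4.71 FPKM in WT. Eif2ak1, the haem-regulated kinase, was at 15.3, 16.5 and 15.7 FPKM in IKO against 15.7, 12.9 and 15.7 FPKM in WT, and Eif2ak2, the kinase PKR, at 8.63, 7.48 and 6.69 FPKM in IKO against 8.53, 7.02 and 8.13 FPKM in WT. The messages of the kinases thus showed no shift like that of the members in the 3-month pair, where their log2 ratios were -0.03 to 0.03. In the multiparous pair Eif2ak2 was lower in IKO, at -0.25, whereas Eif2ak1, Eif2ak3 and Eif2ak4 were level, at 0.008, -0.0007 and 0.003.

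The tRNA synthetases offer a comparison within 1 enzyme class. The 9 cytosolic synthetases outside the set had a median log2 ratio of -0.01 for IKO against WT in multiparous mice with 5 of 9 below 0, where the 11 of the set had -0.20 with 11 of 11. The 5 below 0 were Rars (-0.29), Farsb (-0.21), Dars (-0.18), Vars (-0.14) and Lars (-0.01). Between multiparous and nulliparous IKO at 12 months they had -0.03 with 5 of 9 below 0, where those of the set had -0.32 with 11 of 11. At 3 months 8 of 9 were below 0 with a median of -0.05, close to the set, which had 11 of 11 and a median of -0.07. The 17 mitochondrial synthetases had medians of 0.04, -0.02 and 0.01 in these pairs in the order 3 months, multiparous and IKO parity. Of these, Lars2, the mitochondrial leucyl enzyme, passed 1.5-fold with age and parity in both genotypes, in WT through the library that stood apart, at 31.3, 55.7 and 24.6 FPKM in IKO in the order of stages, against 29.3, 55.4 and 29.3 FPKM in WT. None of these lists was tested against another, and all were chosen with earlier results of these data known.

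Of 20 further ATF4 targets measured, 14 were below 0 for IKO against WT at 3 months, against 46.5% of all genes, with a median of -0.12. In multiparous mice 13 were below 0, against 55.6% of all genes, with a median of -0.07. In IKO 18 were above 0 with age and 16 below 0 with parity, against 56.2% and 56.1% of all genes, with medians of 0.23 and -0.23. Stc2, a secreted stanniocalcin named after its values were seen, had the largest ratios, at 2.46, 12.0 and 1.24 FPKM in IKO in the order of stages, against 3.94, 4.19 and 3.93 FPKM in WT. Its 12-month nulliparous IKO value was the highest of all 6 libraries and its multiparous IKO value the lowest. Cth, which makes cysteine, was at 2.57, 3.22 and 1.72 FPKM in IKO, against 3.52, 1.66 and 2.61 FPKM in WT. Cbs, Herpud1, Slc7a6, Map1lc3b and Atf5 went the other way, above 0 for IKO against WT at 3 months and in multiparous mice. Cbs had the largest of these ratios (0.09 and 0.53), at 41.3, 50.4 and 34.2 FPKM in IKO, against 38.7, 55.0 and 23.3 FPKM in WT. Atf5, a factor closely related to ATF4, was at 353, 372 and 339 FPKM in IKO, against 346, 501 and 330.1 FPKM in WT, and like Atf4 it had its highest value in the WT library that stood apart.

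**Figure D4:**
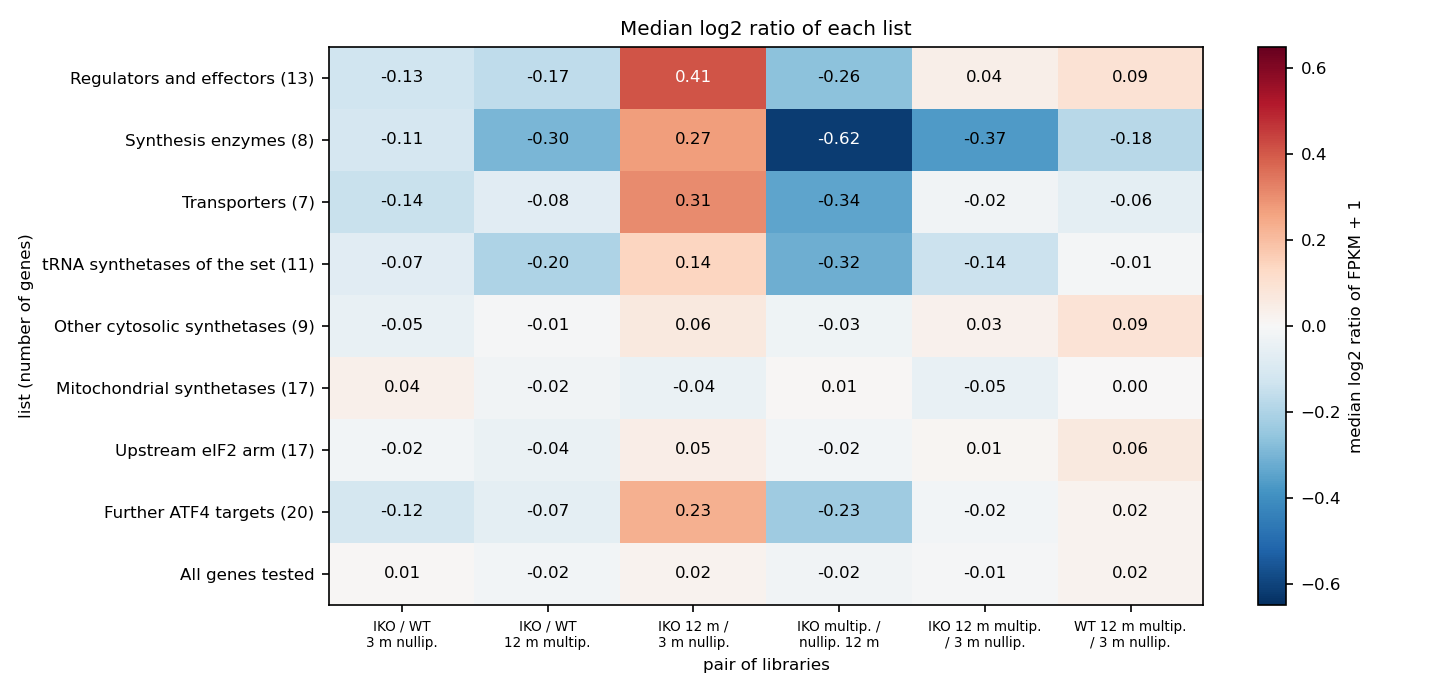
Median log2 ratio of FPKM + 1 (colour and printed value) for each list of genes (rows) in 6 pairs of libraries (columns) that do not use the 12-month nulliparous WT library. The synthesis enzymes have -0.62 between multiparous and nulliparous IKO, and the 9 other cytosolic synthetases have -0.03 where the 11 of the set have -0.32.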

How the data were processed

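FPKM values of all 6 libraries were deposited by the authors in a single table. Libraries were poly-A selected and directional, with 100-base paired reads, per the labels' protocols. The submitters' processing notes name the build mm10 and the tools TopHat, Cufflinks and Cuffdiff, whose versions are not given in the sources used here. FPKM depends on gene models and on the total, so very abundant genes lower the others. Symbols at more than 1 locus (260 symbols, 758 rows of 23845) were left out. Starts had 1 added, since 76.6% of 11995 genes that share their end with RefSeq (GRCm38.p6) start 1 base later there.

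Counts were not used, and absolute depth is unknown. Among genes under 0.05 FPKM, values in 2 libraries were most often in 1 ratio, as whole fragments would give, and that ratio puts the depth of the other libraries at 0.768 to 1.02 of the 3-month WT library, lowest for 12-month nulliparous WT. It held for 13.1% to 24.9% of those genes.

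Log2 ratios of FPKM + 1 were taken in 9 pairs of libraries, for genes averaging 1 FPKM or more and without ratios where a library was listed at 0. limma 3.58.1 (R 4.3.3) was fitted with a trended prior, and tested on simulated data. The limma p-values rest on the spread between libraries left after genotype and stage, drawn partly from all genes. That spread may be technical or a genotype difference that varies between stages. Promoter windows were searched by text, and 13 of the 15 genes with the core matched an annotated transcript start on the given strand.

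The members and all gene lists were chosen with earlier results of these data known. Named were Atf4, Ddit3, Trib3, Asns, the 4 eIF2 kinases, and genes past 1.5-fold in the same direction in both genotypes or at 2 or more stages, or called by the fit, which were Nupr1, Phgdh, Lars2 and Foxo1. Other genes were chosen after their values were seen. Marker lists covered beta, acinar, ductal, alpha, delta and PP, endothelial, immune and stromal cells, and the ductal list summed to 472 to 591 FPKM and the immune list to 16.9 to 22.1 FPKM per library. Alternatives were other pseudocounts, filters, scalings, thresholds, a correction for transcript length and GC, and leaving out each library in the fit.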

Additional observations from a re-analysis of the deposited data

Results flagged for a closer look

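Aldh1l2 passed 1.5-fold in opposite directions in the 2 genotypes, and it was the 1 member to do so. With age its log2 ratio was 0.63 in IKO and -0.70 in WT, and with parity it was -0.96 in IKO and 0.74 in WT. It stood at 44.8, 69.9 and 35.5 FPKM in IKO in the order of stages, against 55.0, 33.4 and 56.5 FPKM in WT. The difference between genotypes was not tested, and both WT ratios use the 12-month nulliparous library that stood apart.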

How the results depend on the processing

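The members' median log2 ratio kept its direction under all 6 alternatives in the 5 pairs of IKO libraries or of IKO against WT that leave out the 12-month nulliparous WT library, and in multiparous against 3-month WT. It lay between -0.12 and -0.09 at 3 months, between -0.20 and -0.14 in multiparous mice, between 0.21 and 0.27 with age in IKO and between -0.36 and -0.32 with parity in IKO. Rescaling without the 20 most abundant genes moved it to 0.27 for IKO against WT at 12 months nulliparous, to -0.20 with age in WT and to 0.16 with parity in WT. Rescaling by the median ratio moved it to 0.050 with age in WT. These 3 pairs use the library that stood apart, and the cause was not tested.

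Calls by limma over all genes depended on the setting. For genotype 1 gene was called with a pseudocount of 0.1 FPKM. For age 1 gene was called with the trend on length and GC removed and 0 without genes listed at 0, where 486 had an unadjusted p under 0.05. For parity the counts were 5 after trend removal, 1 after rescaling without the 20 most abundant genes, and 0 without a filter, with a mean of at least 5 FPKM and without genes listed at 0, where 1567, 508 and 836 had an unadjusted p under 0.05. For multiparous against 3-month libraries they were 13, 5, 4 and 4 after trend removal, without a filter, with the higher filter and without genes listed at 0. Leaving out each library gave 2 to 9 genes for genotype, 17 to 6039 for age, 20 to 6319 for parity and 27 to 768 for the joined contrast. Members called ranged over the same fits from 0 to 22 for age, 0 to 25 for parity and 0 to 7 for the joined contrast, and were 0 for genotype. For age and parity the highest counts came without the 12-month nulliparous IKO library, when the library that stood apart was alone at its stage, and for members in the joined contrast without the 12-month nulliparous WT library. No paired analysis was possible because replicate numbers only name the lone library of each group, although the fit carries stage as a term.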
